A study of Mus musculus with 18 samples.

Results

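The collagen chain genes were taken as the genes of the deposited expression table whose symbol reads Col, a number, the letter a and a number. This gave 42 genes, each on a single entry, of 36655 distinct symbols in the table. Of the 42 chains, 38 were above 0 in at least 1 library, and Col6a6, Col9a1, Col9a2 and Col13a1 were listed at 0 in all 18. The expression unit is FPKM, fragments counted per length of transcript and per depth of the library. This scaling is meant to let levels of different genes be set side by side, within the limits given below.

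RNA was sequenced from blood cells and fibroblasts of C57BL/6 mice grown wholly from induced pluripotent stem (iPS) cells that carry Oct4, Sox2, Klf4 and c-Myc under doxycycline control, so every library here has these transgenes. Blood cells were of 3 types: stem cells with long-term (LT-HSC) or short-term (ST-HSC) capacity to rebuild blood, and myeloid progenitors (MP). Each gave 5 libraries: uncultured (0), cultured for 2 or 4 days with doxycycline (2D, 4D) and cultured as long without it (2N, 4N). Fibroblasts gave 3 libraries, at 0 days and after 2 and 4 days with doxycycline (2D, 4D). They have no N libraries, so in fibroblasts doxycycline and time in culture cannot be told apart. The series design describes the N cultures as free of doxycycline, whereas their doxycycline field says yes for all 6; groups here follow the sample titles. Of the 4 factors, only Sox2 separated D from N in all 6 pairs, at 15.6 to 61.3 FPKM in the 6 D blood libraries and at 0 to 1.50 in the 6 N libraries. Pou5f1, the gene of Oct4, was at 0 in all 6 N and in 3 of the 6 D libraries, with at most 2.34 FPKM; Klf4 was higher in D in 4 of 6 pairs and Myc in 1.

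Every condition was a single library, so cell types and days stand in for replicates in each test, and p-values measure the spread between them. Each blood library was amplified by PCR from 25 picked cells, while fibroblast RNA was extracted in bulk and prepared by the standard Illumina mRNA route. Library method and lineage therefore cannot be told apart. Depth is unknown, and a value of 0 may be a failed estimate: Gapdh and Rpl3 were each listed at 0 in 2 libraries. Their highest values were only 22.6 and 5.82 FPKM, and that of Rps6 was 17.0, while Actb ran from 162 to 2834. Some genes may thus be underestimated, so shares of total FPKM and ratios between genes are approximate. Between 10478 and 12425 genes reached 1 FPKM in a library. All 10 fibroblast markers looked at reached 1 FPKM in a fibroblast library; in blood they summed to 2.89 to 26.8 FPKM, with Dcn, Lum and Postn at 0 in all 15 libraries. The 5 leukocyte markers summed to at most 1.26 FPKM in fibroblasts.

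Collagens are secreted proteins whose polypeptide chains wind into a triple helix, and fibroblasts are their main producers in connective tissue. Fibrillar collagens such as types I, III and V form the tensile fibrils, FACIT collagens (types XII and XVI among them) bind to fibril surfaces, type VI forms beaded filaments around cells, and type IV forms the network of basement membranes. Chains are hydroxylated and folded in the endoplasmic reticulum, trimmed by propeptide proteinases outside the cell and cross-linked by lysyl oxidases.

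In fibroblasts at 0 days the collagen chains together made up 2.94% of all FPKM, with a sum of 15403 FPKM. This share was 0.166% (947 FPKM) in 2D and 0.468% (2628 FPKM) in 4D. In the 15 blood libraries the sum ran from 10.4 to 150.6 FPKM, or 0.00137% to 0.0210% of the total. Fibrillar chains gave 75.0%, 68.1% and 68.9% of the collagen FPKM of the 0, 2D and 4D fibroblasts, and the beaded filament chains of type VI gave 18.6%, 17.3% and 16.4%. Type IV chains gave 1.75% at 0 days, 10.6% in 2D and 8.77% in 4D. The blood libraries had another make-up: type IV held 19.4% to 80.2% of their collagen FPKM, with a median of 56.0%.

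**Figure D1:**
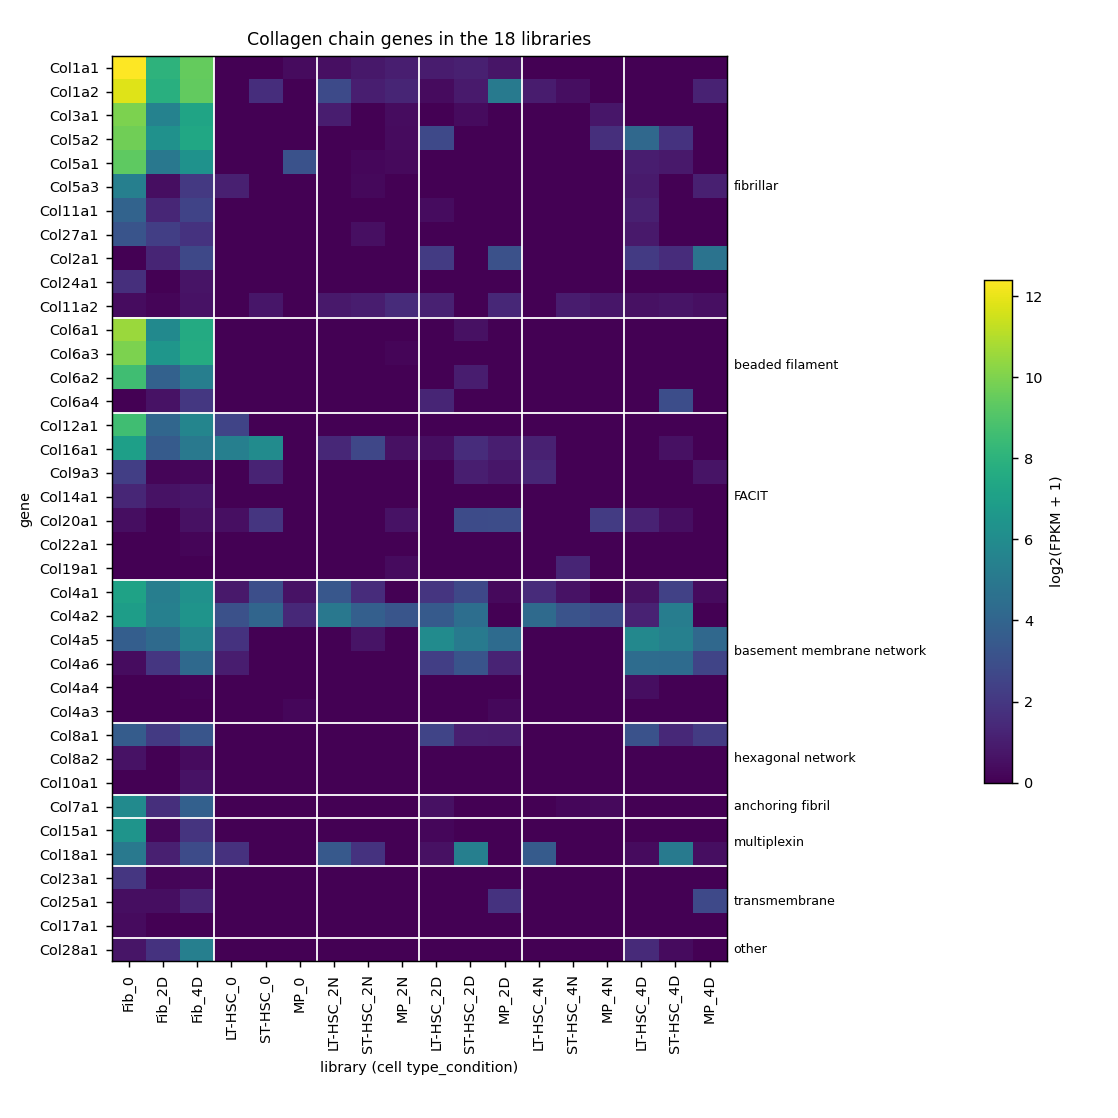
Level of the 38 collagen chain genes above 0 in any library, as log2(FPKM + 1) by colour, with genes in rows grouped by collagen class and the 18 libraries in columns. The 3 fibroblast libraries at the left hold the high values, led by Col1a1 at 5436 FPKM; Col4a5, Col4a6 and Col8a1 are seen in the D blood libraries.

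**Figure D2:**
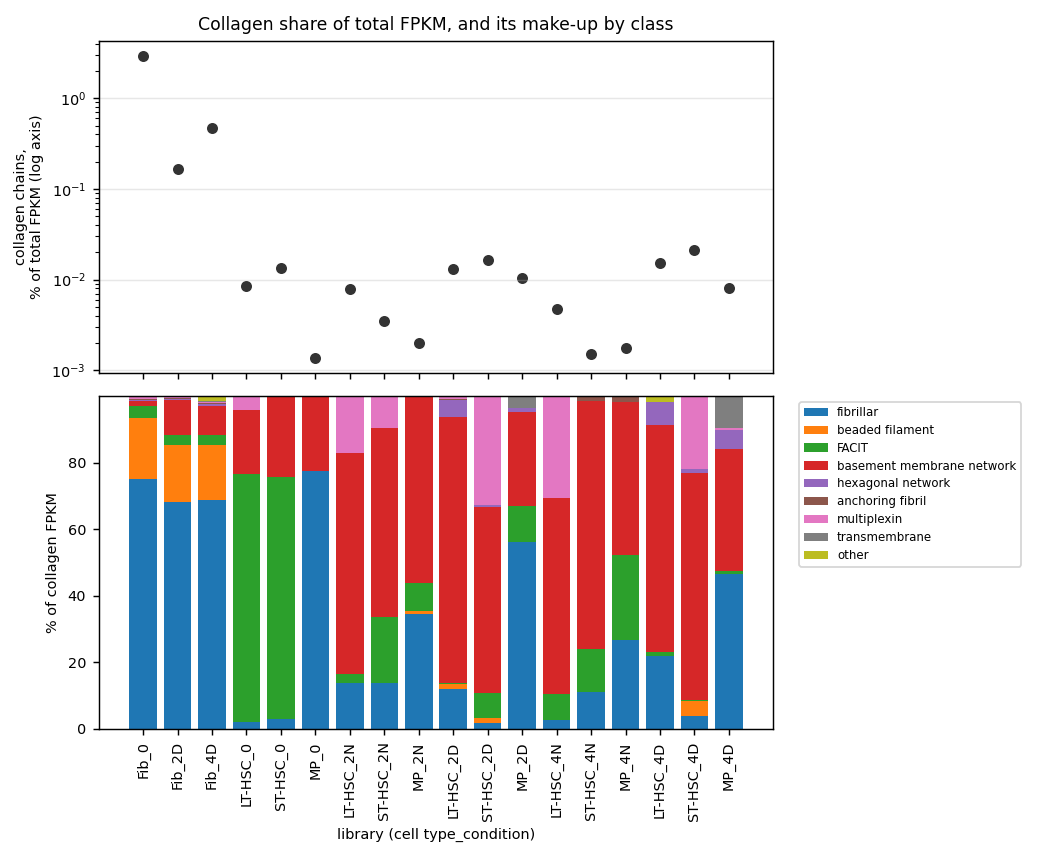
Upper panel: collagen chains as a percentage of total FPKM in each library (log axis). Lower panel: percentage of the collagen FPKM that each class holds. The 0-day fibroblasts stand highest at 2.94%, and the red type IV segment (basement membrane network) is larger in all 15 blood libraries than in fibroblasts.

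Fibrillar chains led in fibroblasts. Col1a1 and Col1a2, the chains of type I collagen, stood at 5436 and 3583 FPKM at 0 days, at 258 and 228 in 2D, and at 708 and 691 in 4D. Both were far lower on day 2 than at 0 days, and higher on day 4 than on day 2. The ratio of Col1a1 to Col1a2 was 1.52 at 0 days, 1.13 in 2D and 1.02 in 4D. Col3a1, which forms type III fibrils in skin and vessels, had 986, 43.8 and 150.4 FPKM in the same order. The type V chains, which help to start fibrils and limit their width, were at 646, 30.3 and 80.4 FPKM for Col5a1 and at 838, 77.5 and 165 FPKM for Col5a2. Their minor partner Col5a3 had 39.7 FPKM at 0 days, 0.357 in 2D and 3.19 in 4D. All of these had their highest value at 0 days and their lowest in 2D. Col11a1, which joins type V in fibrils, followed that order at a lower level, with 14.5, 1.53 and 4.62 FPKM.

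The filament and fibril-surface chains showed the same order of libraries. Col6a1, Col6a2 and Col6a3, which assemble into type VI filaments, were at 1484, 382 and 1000.2 FPKM at 0 days. They were at 58.7, 13.3 and 91.3 FPKM in 2D and at 191, 39.1 and 197 in 4D. Col12a1, a FACIT chain, went from 386 FPKM to 16.3 and 49.7, and Col16a1, another FACIT chain, from 129 to 10.8 and 31.8. Col7a1, the anchoring fibril chain that fastens epidermis to dermis, was at 59.8, 2.15 and 13.2 FPKM. The multiplexins of basement membrane zones were far apart at 0 days and in 2D: Col15a1 had 85.5, 0.169 and 2.68 FPKM, and Col18a1, source of the endostatin fragment, had 31, 1.12 and 6.24.

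Other chains differed less or had another order. Col4a1 and Col4a2, the chains of the basement membrane network found in most tissues, were at 139 and 118 FPKM at 0 days, 38.8 and 40.9 in 2D, and 77.8 and 85.7 in 4D. Their 4D values were 1.78-fold and 1.37-fold below 0 days. Col8a1, a network-forming chain, had 11.1, 3.25 and 8.73 FPKM. These 3 kept the order of libraries with smaller differences. Col4a5, a type IV chain of more restricted basement membranes, was instead lowest at 0 days, with 12.2, 18.3 and 48.9 FPKM. Its neighbour Col4a6 went from 0.330 to 2.94 and 17.9 FPKM, and Col28a1, a chain known from peripheral nerve, from 0.623 to 2.56 and 39.6. These 3 chains stood highest in 4D. Col27a1, a fibrillar chain under 10 FPKM throughout, had 8.22, 3.97 and 2.47 FPKM and was lowest in 4D.

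**Figure D3:**
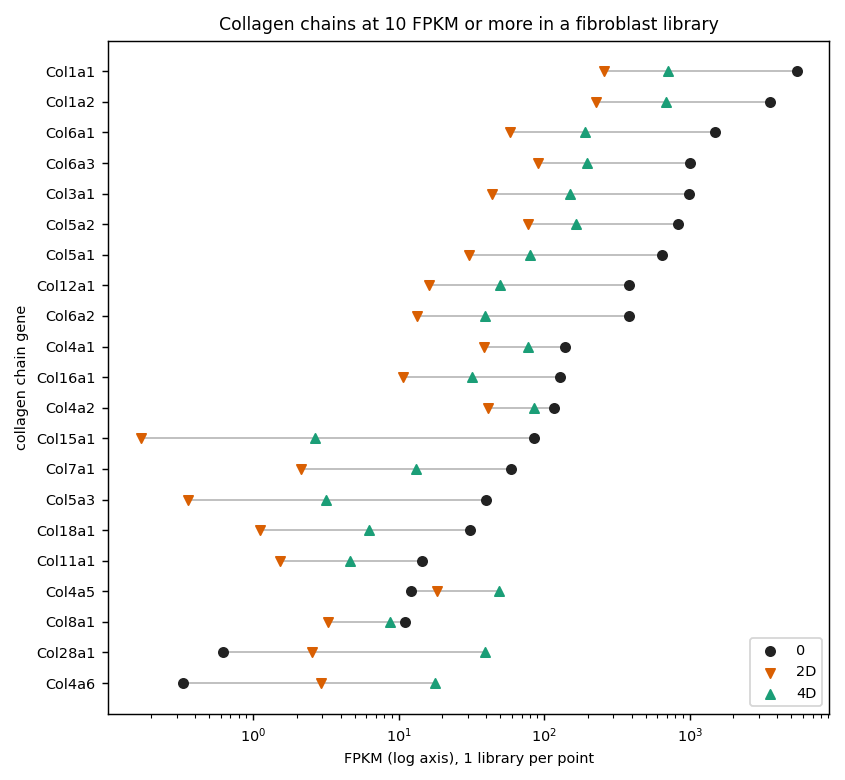
FPKM (log axis) of the 21 collagen chain genes at 10 FPKM or more in a fibroblast library, with 1 point per library for 0 days, 2D and 4D. For each chain the 4D triangle lies to the right of the 2D triangle; Col4a5, Col4a6 and Col28a1 have their 0-day point at the left end.

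A change was counted when log2(FPKM + 1) differed at least 4-fold from 0 days in the same direction in 2D and in 4D, among genes at 10 FPKM or more in a fibroblast library. Of the 21 chains so measured, 13 were lower and 0 higher, where 4.54% of all 8842 genes were lower and 3.35% higher. The 13 were Col1a1, Col1a2, Col3a1, Col5a1, Col5a2, Col5a3, Col6a1, Col6a2, Col6a3, Col7a1, Col12a1, Col15a1 and Col18a1. The median log2 change of the 21 chains, averaged over both days, was -3.03, against 0.33 for all 8842 genes. On the scale without the added 1, Col1a1 was 21.0-fold lower in 2D and 7.68-fold lower in 4D, and Col6a2 was 28.7-fold and 9.76-fold lower. From 2D to 4D all 21 chains lay higher, with a median log2 difference of 1.49, while 4126 of the 8842 genes did, with a median of -0.03. With 1 library per condition these counts carry no test, and every fibroblast change rests on the single 0-day library. Without N libraries of fibroblasts, doxycycline and culture cannot be told apart in these changes.

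Summed FPKM of the 10 fibroblast markers moved with the chains, from 2344 at 0 days to 214 in 2D and 551 in 4D. The 4 smooth muscle markers did so too, with sums of 4241, 263 and 461 FPKM. Of the fibroblast markers, Pdgfra, Pdgfrb, Thy1, Fbn1, Postn, Fap and Prrx1 had the order of their sum. Dcn was instead highest in 4D (36.5, 11.0 and 70.0 FPKM), Twist1 was lowest in 4D (63.2, 30.8 and 25.7), and Lum was at 0 in 2D and 4D. The part of these markers in the collagen values was not tested, and in bulk RNA fewer cells of a type and less RNA per cell cannot be told apart.

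Genes that build collagen fibres were described in the same way. Each count below is to be read beside the 4.54% of all 8842 genes that were lower and the 3.35% that were higher. Of 9 genes for propeptide processing and cross-linking at 10 FPKM or more, 6 were lower by the 4-fold rule and 0 higher. Lox, the lysyl oxidase that starts cross-linking, had 643, 17.0 and 72.1 FPKM at 0 days, in 2D and in 4D. Loxl3 of the same family had 168.9, 3.76 and 8.17, Bmp1, the main C-propeptide proteinase, had 313, 15.1 and 32.7, and Loxl1 had 236, 5.53 and 15.2. These 4 all had their lowest value in 2D, whereas Pcolce2 of the same list had 30.9, 43.3 and 32.1 FPKM and was not counted as changed. Of 17 genes for modification and folding, 6 were lower and 0 higher. Serpinh1, the collagen chaperone known as HSP47, had 1960 FPKM at 0 days, 244 in 2D and 436 in 4D. P4ha3, a prolyl hydroxylase subunit, had 117, 2.71 and 5.67, while its paralog P4ha1 had 110.5, 49.7 and 104.3 and was not counted as changed. Ppib, a general folding isomerase, had 367, 194 and 294. Of 4 collagen-degrading genes only the membrane proteinase Mmp14 was counted lower (249, 24.3 and 51.6 FPKM), and of 4 receptors only the integrin subunit Itga11 (87.4, 2.01 and 10.6). The fibril-binding proteoglycans Bgn and Fmod were lower among 4, whereas Dcn had 36.5, 11.0 and 70.0 FPKM.

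At a level of 1 FPKM in any library, 29 of the 42 chains were seen in fibroblasts and 24 in blood. Of these, 21 were seen in both. Fibroblasts alone had 8, namely Col6a1, Col6a3, Col7a1, Col14a1, Col15a1, Col23a1, Col24a1 and Col27a1. Blood alone had Col11a2, Col19a1 and Col20a1, at no more than 1.91, 1.46 and 6.26 FPKM. No chain reached 1 FPKM in all 15 blood libraries, while 18 did so in all 3 fibroblast libraries. Within blood, 11 chains were seen in the 3 uncultured libraries, 12 in the 6 N libraries and 20 in the 6 D libraries. A single D library held 7 to 11 such chains and a single N library 2 to 6. Over all genes, 10758 to 11365 reached 1 FPKM in a D library and 10702 to 11118 in an N library. The counts over whole groups rest on unequal numbers of libraries.

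The main fibroblast chains were near 0 in blood. Col1a1 ranged over the 15 blood libraries from 0 to 1.10 FPKM with a median of 0, and Col3a1 from 0 to 1 FPKM with a median of 0. Col6a1, Col6a2 and Col6a3 were each listed at 0 in 14 of 15, and their highest values were 0.492, 1 and 0.134 FPKM. Col12a1 appeared only in uncultured LT-HSC, at 4.79 FPKM. Col5a1 appeared at 7.77 FPKM in uncultured MP and at no more than 0.991 elsewhere in blood.

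Fibroblasts were compared with blood cells over conditions 0, 2D and 4D, which all cell types have, by limma on log2(FPKM + 1) with condition as block. Of 24 chains tested, 19 were higher in fibroblasts and 0 lower at an adjusted p under 0.05, beside 19.5% of all genes tested higher and 14.9% lower. Only 12 of the 24 had a mean of 1 FPKM or more in blood, so the other 12 entered the test through the fibroblast libraries and had to differ. Col1a1 differed by a log2 value of 9.62 ± 0.70 (SE; limma adjusted p = 1.86e-06), Col6a3 by 8.04 ± 0.55 (1.45e-06) and Col3a1 by 7.52 ± 0.65 (6.10e-06). Among chains with a mean of 1 FPKM or more in blood, Col4a1 differed by 4.83 ± 0.70 (limma adjusted p = 2.62e-04) and Col4a2 by 3.68 ± 1.08 (0.0192). The call for Col4a2 was lost when LT-HSC, condition 0 or condition 4D was left out. Col8a1, called at 1.73 ± 0.62 (limma adjusted p = 0.0467), kept its call in 1 of 6 such fits.

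Several chains were not distinguished between the lineages. For Col4a5 the log2 difference was 0.92, with a 95% interval of -0.57 to 2.41 (limma adjusted p = 0.328), and it was -0.18 when condition 0 was left out. Col4a6 gave 0.09 (interval -1.13 to 1.31; limma adjusted p = 0.915) and Col2a1 -0.19 (-1.75 to 1.37; 0.861). Col18a1 gave 1.47 (-1.35 to 4.29; limma adjusted p = 0.408).

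Of 41 genes of the collagen machinery tested, 33 were called between fibroblasts and blood, read beside 34.4% of all genes tested. Of these, 16 had a mean under 1 FPKM in blood, entered through the fibroblast libraries and had to differ, and all 16 were called; of the other 25, 17 were called. Among 18 genes for modification and folding 12 were higher in fibroblasts and 1, Ppib, was lower (-1.28 ± 0.22; limma adjusted p = 6.69e-04). Of 10 genes for processing and cross-linking 9 were higher, 7 of them through fibroblasts alone, Lox among these. Of the collagen-degrading genes 4 of 4, of the receptors 3 of 5 and of the proteoglycans 4 of 4 were higher, with 2 in each list through fibroblasts alone. Serpinh1 had a log2 difference of 8.69 ± 0.62 (limma adjusted p = 1.84e-06) and was at no more than 2.79 FPKM in any blood library; it too entered through fibroblasts.

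An interaction term then tested whether the change from 0 to the D libraries differed between fibroblasts and blood cells. In both lineages that change includes culture as well as doxycycline. The test shares its libraries with the comparison before. Of the 24 chains, Col15a1 alone passed, with a log2 difference in change of -5.42 ± 0.90 (limma adjusted p = 0.0271); 0.944% of all genes tested passed, 0.423% with a positive and 0.521% with a negative term. Col15a1 was at most 0.182 FPKM in blood, so the term sets its lower D values in fibroblasts against values near 0, and the call was lost in each of the 5 fits that left out a blood cell type or a day. Estimates of the same sign that did not pass were -3.99 for Col1a1 (limma adjusted p = 0.107) and -3.89 for Col6a1 (0.0927). Their highest values in blood were 1.10 and 0.492 FPKM, so they too could hardly fall there. Col4a5 gave -3.29 (limma adjusted p = 0.104) with another pattern. It was higher in D than at 0 days in fibroblasts and in each blood cell type, and the estimated rise was larger in blood.

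In blood, Col4a5 and Col4a6 of the 6 type IV chains stood higher after doxycycline. Col4a5 was at 62.5 FPKM in LT-HSC 2D and 55.0 in 4D, at 32.5 and 41.8 in ST-HSC, and at 19.1 and 17.3 in MP. In the N libraries it was listed at 0 in 5 and at 0.579 FPKM in ST-HSC 2N, and among uncultured cells it was above 0 only in LT-HSC, at 2.52. Col4a6 had 3.92 and 19.8 FPKM in LT-HSC, 8.50 and 19.6 in ST-HSC, and 1.36 and 4.89 in MP, on days 2 and 4 of D. It was at 0 in all 6 N libraries and at 0.986 in uncultured LT-HSC. For both genes every D library lay above every N library. The MP libraries had the lowest D values of Col4a5, and Col4a6 was higher on day 4 than on day 2 in all 3 cell types.

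Col4a5 and Col4a6 encode chains that assemble together in the basement membranes of skin and smooth muscle, and Col4a5 also joins Col4a3 and Col4a4 in the kidney. Col4a3 and Col4a4 were at no more than 0.221 and 0.389 FPKM in any of the 18 libraries. Col4a5 and Col4a6 lie head to head on the X chromosome, with start sites 1343 bases apart in RefSeq on build GRCm38.p6. The RefSeq windows from 250 bases before to 50 bases after each start are shown because these genes rose together; they are chrX:141475169-141475468 on the plus strand for Col4a5 and chrX:141474027-141474326 on the minus strand for Col4a6. Capitals mark the GC box GGGCGG, searched on both strands.
Col4a5: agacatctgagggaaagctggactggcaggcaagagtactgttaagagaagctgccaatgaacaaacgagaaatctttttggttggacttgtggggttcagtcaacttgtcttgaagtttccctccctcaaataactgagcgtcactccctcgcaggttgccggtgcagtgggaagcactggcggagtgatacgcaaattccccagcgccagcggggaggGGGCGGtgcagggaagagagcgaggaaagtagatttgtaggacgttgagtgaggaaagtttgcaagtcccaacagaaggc
Col4a6: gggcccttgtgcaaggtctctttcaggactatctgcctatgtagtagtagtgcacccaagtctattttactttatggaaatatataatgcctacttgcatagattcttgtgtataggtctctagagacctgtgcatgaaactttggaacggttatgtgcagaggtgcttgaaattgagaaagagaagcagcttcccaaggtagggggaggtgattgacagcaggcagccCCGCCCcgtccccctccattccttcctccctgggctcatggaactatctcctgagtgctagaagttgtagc
The box lies 30 bases before the start of Col4a5 and, on the other strand, 21 bases before that of Col4a6. It was found in 35.7% of all 32851 RefSeq windows of this length and in 22 of 37 windows of collagen genes, which cover 34 of the 42 chains. The octamer ATGCAAAT (in 1.74% of all windows), the SOX core ACAAAG (18.7%), the KLF box GGGNGTGG (17.6%) and the E-box CACGTG (7.15%), each searched on both strands, had no match in either window. The deposited values were made on build mm9, so these windows are shown as sequence only.

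D was tested against N by limma with the 6 pairs of cell type and day as blocks. Of 11 chains tested, 4 were higher and 0 lower at an adjusted p under 0.05, where 4.53% of the 12254 genes tested were higher and 4.44% lower (8.97% in all). Only 5 of the 11 had a mean of 1 FPKM or more in N; the rest, all 4 called chains among them, entered through the D libraries and had to be higher there, so the count is no support in itself. The log2 difference was 5.02 ± 0.39 for Col4a5 (SE; limma adjusted p = 1.23e-04) and 3.01 ± 0.51 for Col4a6 (0.00687). Both calls held when any single pair was left out. Groups did not overlap, D above N, for Col4a5, Col4a6 and Col8a1, beside 2.97% of all genes tested; no chain had D wholly below N, beside 2.12%.

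Col8a1, known from endothelium and cornea, was listed at 0 in all 9 uncultured and N blood libraries. Its D values on days 2 and 4 were 4.90 and 7.72 FPKM in LT-HSC, 1.05 and 1.65 in ST-HSC, and 1.01 and 3.45 in MP. The log2 difference was 1.88 ± 0.46 (limma adjusted p = 0.0329), with the day 4 value above the day 2 value in each cell type. Col2a1, the chain of cartilage fibrils, was also at 0 in those 9 libraries. It had 3.45 and 3.31 FPKM in LT-HSC D, 0 and 1.93 in ST-HSC D, and 7.41 and 25.8 in MP D, and so was higher in 5 of 6 pairs (log2 difference 2.27 ± 0.59; limma adjusted p = 0.0426). The calls for Col8a1 and Col2a1 each held in 1 of the 6 fits with a pair left out, with adjusted p of 0.0425 to 0.101 and of 0.0221 to 0.125. The cartilage markers Acan, Sox9 and Matn1 were at 0 in all 6 D libraries, and Hapln1 was at 1.09 FPKM in MP 4D.

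**Figure D4:**
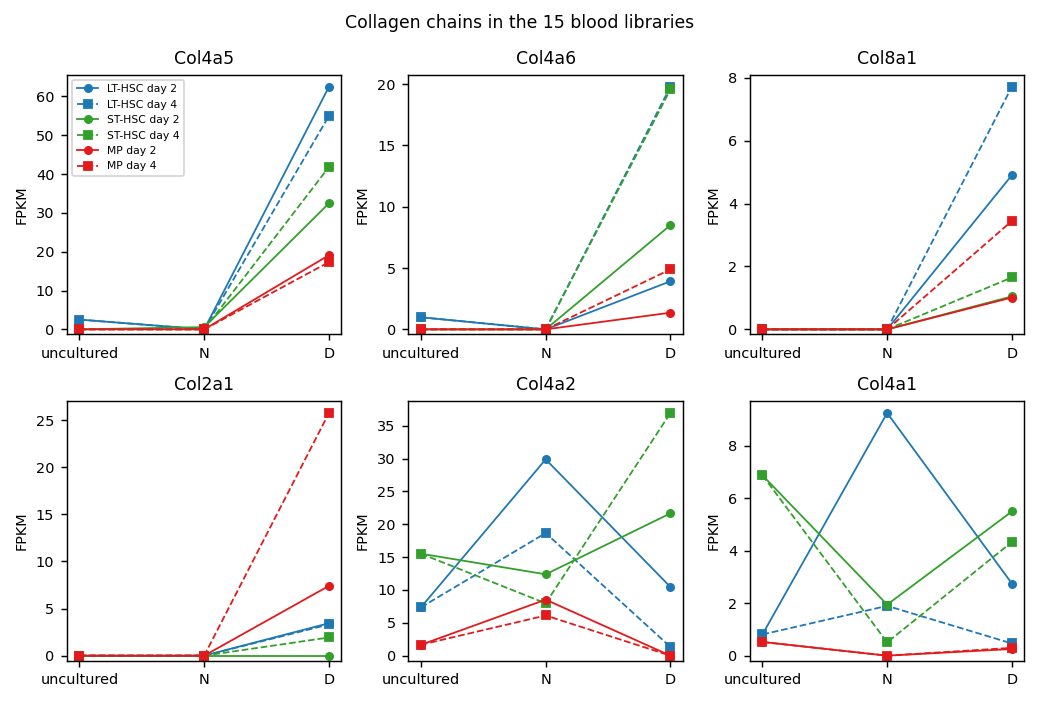
FPKM of 6 collagen chain genes in the 15 blood libraries, by condition (uncultured, N, D); each line joins the libraries of a cell type for a day, and the uncultured point of a cell type is shared by its lines. Col4a5, Col4a6, Col8a1 and Col2a1 are at or near 0 except in D, while Col4a2 and Col4a1 have no common order.

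Leukocyte marker levels also differed between D and N. The 5 markers summed to 2460 to 4552 FPKM in N. In D they summed to 2579 and 2083 in ST-HSC on days 2 and 4, to 282 and 27.3 in LT-HSC and to 201 and 6.07 in MP. The ST-HSC sums in D were mostly Coro1a, at 2254 and 1907 FPKM. By member, Cd52 and Tyrobp were lower in D in 6 of 6 pairs, ST-HSC included, and Ptprc, Laptm5 and Coro1a in 5. The 10 fibroblast markers summed to 2.89 to 8.30 FPKM in D and to 6.58 to 26.8 in N, and their members did not move together. Pdgfrb was lower in D in 6 of 6 pairs and Thy1 in 5, whereas Fbn1, the fibrillin of connective tissue microfibrils, was higher in D in 6 of 6 pairs, at 0.523 to 6.56 FPKM against 0 to 0.434. Twist1 was at 3.09 and 2.61 FPKM in LT-HSC D and Pdgfra at up to 1.91 in D, both at 0 in N; Dcn, Lum and Postn were at 0 throughout.

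The 7 endothelial markers summed to 121 and 2.81 FPKM in LT-HSC 2D and 4D, against 159 and 178 in N. In ST-HSC they summed to 181 and 76.8 in D against 48.5 and 12.7 in N, and in MP to 9.32 and 0.262 against 44.6 and 8.74. The sums were thus higher in D in ST-HSC and lower in LT-HSC and MP, but the members did not move together. In LT-HSC on day 2 Esam was lower in D (69.2 FPKM against 133 in N), whereas Pecam1 (22.2 against 15.3) and Tek (26.4 against 4.31) were higher. Cdh5 was above 0 in blood only in ST-HSC 2D and 4D (1.95 and 0.538 FPKM), Tek was higher in D in 4 of 6 pairs, Esam in 3, and Cldn5 was at 0 in all 18 libraries. The part of these differences in the collagen values was not tested.

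Col4a2 was the most widely seen chain in blood, at 1 FPKM or more in 13 of 15 libraries. Uncultured LT-HSC, ST-HSC and MP had 7.35, 15.5 and 1.66 FPKM. The N values on days 2 and 4 were 29.9 and 18.7 in LT-HSC, 12.4 and 7.97 in ST-HSC, and 8.52 and 6.12 in MP. The D values were 10.5 and 1.32 in LT-HSC, 21.7 and 36.9 in ST-HSC, and 0 in both MP libraries. D was therefore below N in LT-HSC and MP and above it in ST-HSC, and the log2 difference of -1.29 ± 0.72 did not pass (limma adjusted p = 0.314). Its partner Col4a1 had 0.808, 6.88 and 0.522 FPKM in uncultured LT-HSC, ST-HSC and MP, 0 to 9.25 in N and 0.254 to 5.50 in D. Across blood the ratio of Col4a1 to Col4a2 ran from 0.0637 to 0.443 in the 11 libraries with both above 0, against 0.908 to 1.18 in fibroblasts. Col4a1 was the lower chain in 13 of 15 blood libraries.

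Col4a1 and Col4a2 also lie head to head, on chromosome 8, with start sites 21 bases apart and their first bases overlapping on opposite strands. Their RefSeq windows are shown for comparison with those of Col4a5 and Col4a6, and capitals mark the 78 bases that both hold, on opposite strands; they are chr8:11312777-11313076 on the minus strand for Col4a1 and chr8:11312555-11312854 on the plus strand for Col4a2.
Col4a1: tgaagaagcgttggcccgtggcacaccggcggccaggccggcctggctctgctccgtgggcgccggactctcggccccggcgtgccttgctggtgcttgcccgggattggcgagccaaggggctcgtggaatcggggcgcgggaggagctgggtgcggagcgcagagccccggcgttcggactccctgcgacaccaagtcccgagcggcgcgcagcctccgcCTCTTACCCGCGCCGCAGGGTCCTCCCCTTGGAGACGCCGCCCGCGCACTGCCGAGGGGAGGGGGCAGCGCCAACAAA
Col4a2: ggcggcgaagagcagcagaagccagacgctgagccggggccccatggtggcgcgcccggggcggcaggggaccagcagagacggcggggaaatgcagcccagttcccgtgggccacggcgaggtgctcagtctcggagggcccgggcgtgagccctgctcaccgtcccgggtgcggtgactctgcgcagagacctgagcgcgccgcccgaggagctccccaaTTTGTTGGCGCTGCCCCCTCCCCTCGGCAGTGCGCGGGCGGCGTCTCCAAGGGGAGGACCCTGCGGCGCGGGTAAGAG
The GC content is 74.0% and 73.7% in these windows and 52.7% and 48.3% in those of Col4a5 and Col4a6, with a median of 52.7% over all windows. The GC box, not marked here, is thus in the windows of both pairs. It lies at position 10 from the start site of Col4a1 and at -192, -48 and 8 from that of Col4a2. Over the 15 blood libraries the log2 levels of Col4a5 and Col4a6 had a Pearson r of 0.92, and those of Col4a1 and Col4a2 one of 0.73; within the 6 D libraries r was 0.55 and 0.97. These describe libraries that share cell types and conditions. In D the ratio of Col4a5 to Col4a6 ran from 2.14 in ST-HSC 4D to 15.9 in LT-HSC 2D. Of the 6 pairs of chains that neighbour each other among protein-coding genes, only these pairs of type IV had both members at 1 FPKM or more in a blood library, in 7 libraries for Col4a1 and Col4a2 and in 6 for Col4a5 and Col4a6. Col3a1 and Col5a2, neighbours that were both high in fibroblasts, were never both at 1 FPKM in blood.

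**Figure D5:**
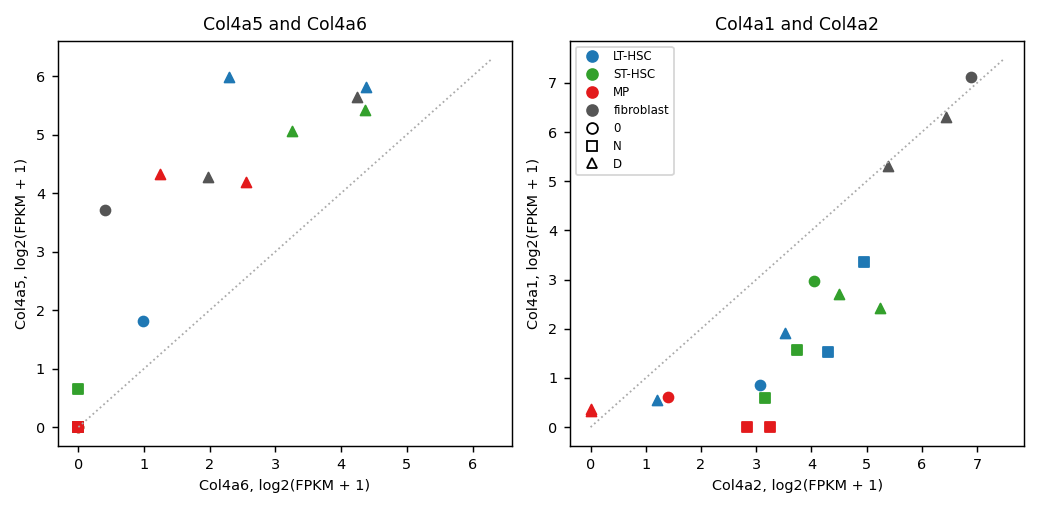
Levels of partner chains against each other as log2(FPKM + 1), 1 point per library, with colour for cell type, shape for condition and a dotted line of equal levels. Col4a5 exceeds Col4a6 in every library with either above 0, at ratios of 2.14 to 36.9 where both were above 0; Col4a1 and Col4a2 lie near the line in fibroblasts and below it in 13 of 15 blood libraries.

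Col16a1 was the leading chain of the uncultured stem cells. It was at 39.7 FPKM in LT-HSC and 62.9 in ST-HSC, at 0 in uncultured MP, at 0 to 5.29 in N and at 0 to 1.99 in D. It made up 66.0% and 68.3% of the collagen FPKM of these stem cell libraries. N was tested against uncultured cells by limma with cell type as block, in a comparison that shares the N libraries with D against N. Of 5 chains tested 0 were called, beside 8.89% of all genes tested (5.8% higher and 3.08% lower in N). An unadjusted p under 0.05 was reached by 1 of the 5 chains, beside 3254 of the 12060 genes tested. That chain was Col16a1, with a log2 difference of -2.83 ± 0.92 (limma adjusted p = 0.0803). It was -4.38 with an adjusted p of 0.0165 when MP, at 0 when uncultured, was left out. The proteoglycan Bgn had a like pattern, with 75.7, 73.4 and 2.28 FPKM in uncultured LT-HSC, ST-HSC and MP and at most 2.32 in N. Its log2 difference was -4.35 ± 0.79 (limma adjusted p = 0.0130). Mmp14 was also called lower in N (-3.00 ± 0.80, limma adjusted p = 0.0435), although in LT-HSC it was at 2.03 FPKM uncultured and 3.63 in 2N. Both had a mean under 1 FPKM in N, entered through the uncultured libraries and had to be lower in N. No other machinery gene was called, beside the 8.89% of all genes tested.

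Other chains were high in single libraries or cell types. Col18a1 was at 39.6 and 32.8 FPKM in ST-HSC 2D and 4D and at 10.1 and 10.7 in LT-HSC 2N and 4N, and at no more than 2.49 in the other 11 blood libraries. Col1a2 was at 32.3 FPKM in MP 2D, where Col1a1 was at 0.611 and Col3a1 at 0, and its median over the 15 blood libraries was 0.887. Col5a2 was at 17.0 FPKM in LT-HSC 4D, 5.67 in LT-HSC 2D and 2.54 in ST-HSC 4D, at 2.18 in MP 4N, and at no more than 0.294 elsewhere in blood (D against N, log2 difference 1.12 ± 0.74; limma adjusted p = 0.409). Col20a1, a FACIT chain, was highest in ST-HSC 2D (6.16 FPKM) and MP 2D (6.26), with at most 3.40 elsewhere. Col25a1, a transmembrane collagen of neurons, was above 0 in blood only in MP 2D (2.58) and MP 4D (5.78).

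MP were tested against both stem cell types by limma over all 15 blood libraries with condition as block. Of 11 chains 0 were called, beside 0.297% of all genes tested (0.0402% higher and 0.257% lower in MP). An unadjusted p under 0.05 was reached by 4 of the 11 chains, beside 1688 of the 12453 genes tested. The lowest adjusted p was that of Col4a2, with a log2 difference of -2.28 ± 0.63 (limma adjusted p = 0.144), followed by Col4a1 at -1.58 ± 0.50 (0.193). Col4a2 was lower in MP than in both stem cell types in all 5 conditions.

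In D against N 5 of 26 machinery genes were called, beside 8.97% of all genes tested. Fkbp14 and Ddr1, with N means under 1 FPKM, entered the test through the D libraries and had to be higher there. Lair1, with a D mean under 1 FPKM, entered through the N libraries and had to be lower in D. Among 15 genes for modification and folding 2 were higher and 0 lower: Fkbp14, a folding isomerase, by 2.21 ± 0.57 (limma adjusted p = 0.0402) and P3h4 (Leprel4 in the table), of the collagen hydroxylation complex, by 4.01 ± 0.77 (0.0131). Of 4 genes for processing and cross-linking, Pcolce2, an enhancer of propeptide cleavage, was higher: it had 135 and 56.6 FPKM in LT-HSC D, 15.4 and 24.4 in ST-HSC D, and 21.6 and 111 in MP D. In N it had 12.5 and 3.46 in LT-HSC and 0 in the other 4 (log2 difference 4.50 ± 0.46; limma adjusted p = 5.66e-04). Lox was at 0 in all 6 D libraries. Of 3 receptors, Ddr1, a kinase activated by collagen, was higher (3.30 ± 0.44; limma adjusted p = 0.00234). Lair1, an inhibitory collagen receptor of leukocytes, was at 17.5 to 45.9 FPKM in N and at most 0.215 in D, and was lower there (-4.76 ± 0.37; limma adjusted p = 1.23e-04).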

How the data were processed

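The members and lists were chosen with earlier results of these data known. The deposited values are FPKM, which the authors made on mm9 with the tools TopHat and Cufflinks, per the submitters' processing notes. The sources used here give neither tool versions nor the annotation, and the unit was taken from the tools and the values. Ratios of low values between libraries showed no common step, so reads could not be recovered and depth is unknown. The table held 36818 entries with 36655 symbols; 158 symbols on several entries, none a collagen chain, were summed.

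Tests ran on log2(FPKM + 1) of genes averaging 1 FPKM or more in the libraries entering a fit, with limma 3.58.1 in R 4.3.3 (trend and robust options, two-sided, Benjamini-Hochberg over all genes tested, threshold 0.05). The added 1 shrinks differences of low genes, and a fitted difference against a group at 0 depends on it. Comparisons among the 3 fibroblast libraries carry no test. Alternatives were other added values, filters, scaling, fits and libraries left out. Values in fibroblasts, in blood or in both were given for the 12 chains highest in fibroblasts, the 10 highest in blood and those called. From each machinery list up to 4 genes were named by smallest p. Dcn, P4ha1, P3h4, Fkbp14, Ppib, Lox and genes outside that rule were named after their values were seen. Promoter windows came from RefSeq on GRCm38.p6. Older symbols were used for 6 machinery genes. Figures were made in Python 3.11.15 with matplotlib 3.10.9.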

Additional observations from a re-analysis of the deposited data

Results flagged for a closer look

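Among the 11 chains tested in D against N, the 6 D and the 6 N libraries were each searched for a single library that stood apart by its gap to the next value (Dixon's ratio above 0.625), in 18 groups with values. This marked 8 groups. The usual chance rate of about 1 in 20 assumes normally distributed values. These are skewed FPKM with many values at 0, where a single larger value is easily marked, so the count cannot be set against that rate. In D these were Col1a2 in MP 2D (32.3 FPKM, next 1.25), Col2a1 in MP 4D (25.8, next 7.41) and Col5a2 in LT-HSC 4D (17.0, next 5.67). In N they were Col1a2 in LT-HSC 2N (5.99, next 1.42), Col4a1 in LT-HSC 2N (9.25, next 1.95), Col16a1 in ST-HSC 2N (5.29, next 1.60), Col5a2 in MP 4N (2.18, next 0.294) and Col20a1 in MP 4N (3.40, next 0.530). The groups mix 3 cell types and 2 days, so such a library may differ by type.

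For Col15a1 the interaction term for the change from 0 to D between fibroblasts and blood cells passed, with a log2 value of -5.42 (limma adjusted p = 0.0271), in 12 libraries. Col15a1 was at most 0.182 FPKM in blood, so it could hardly fall there, and the term rests on the single 0-day fibroblast library. The call was lost in each of the 5 fits with libraries left out.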

How the results depend on the processing

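For D against N, 4 chains were called. With no filter on low values 3 were called, without Col2a1 (limma adjusted p = 0.0622). At a mean of 5 FPKM or more, where only 3 chains were tested, 1 was called, Col4a5. With 1 pair left out 2 to 4 were called, Col4a5 and Col4a6 in all 6 fits. Leaving out LT-HSC day 2 or 4, ST-HSC day 4, or MP day 2 or 4 gave 2. For N against uncultured cells the count was 0, and 0 to 1 with a cell type left out. The interaction called 1 chain; it called 0 with 0.1 FPKM added in place of 1, 0 at a mean of 5 FPKM or more, 2 with quantile normalization, 3 without the trend and robust options, 4 with no filter and 0 in each of 5 fits with libraries left out. Fibroblasts against blood called 19 chains, 14 to 20 under 7 other settings and 13 to 17 with libraries left out; 11 of the 19 were called in all 13. The log2 difference of Col4a5 between fibroblasts and blood was 0.92 and ran from -0.18 (without condition 0) to 1.81 (without 2D) with libraries left out. MP against stem cells called 0 chains in all 12 alternatives. By the fibroblast 4-fold rule 13 chains were lower and 0 higher; it was 15 and 2 at 2-fold, 14 and 0 from 1 FPKM, 14 and 1 with 0.1 added, 15 and 0 on day 2 alone and 13 and 2 on day 4 alone. The higher chains were Col4a6 and, at 2-fold and on day 4, Col28a1. At 10 FPKM 8 chains were seen in blood, against 24 at 1 FPKM. The causes of these changes were not tested. Over all genes tested, the calls for D against N ran from 529 to 1476 (1099 as reported), for N against uncultured from 52 to 1194 (1072) and for the interaction from 0 to 555 (125). The labels give no replicate numbers to pair by. D and N were paired by cell type and day, and a fit without these blocks also called 4 chains. Depth is unknown, so no detection limit can be given for values listed at 0.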
